A study of Arabidopsis thaliana with 6 samples.

Results

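ABORTED MICROSPORES (AMS, AT2G16910), AT1G06170 (bHLH89) and AT2G31210 (bHLH91) are 3 basic helix-loop-helix (bHLH) transcription factor genes of the anther, and their transcript levels were compared between anthers of the *myb80* mutant and of wild-type *Arabidopsis thaliana*. The genes were chosen by name, with earlier results of these data known. Each had 1 probe set that the platform's annotation assigns to that gene alone, out of 13355 genes with a probe set of their own. Arrays were made from 3 mutant samples, named replicates 1, 4 and 5-2, and 3 wild-type samples, named replicates 2, 5 and 6. For each biological replicate about 1000 anthers of stages 5 to 8 were dissected, per the labels, so that each sample pools many anthers over several stages. The *myb80* allele, the genetic background of the lines and the meaning of the name 5-2 are not stated in the sources used here.

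The tapetum is the innermost layer of the anther wall, which nourishes the microspores and makes much of the pollen wall before it degenerates. Its differentiation runs through a chain of transcription factors in which DYT1 acts upstream of TDF1, TDF1 upstream of AMS, and AMS upstream of MYB80 and MS1. AMS is required for the tapetum to make pollen wall precursors, and its loss makes plants male sterile. AT1G06170 and AT2G31210 encode closely related bHLH proteins that, with bHLH10 (AT2G31220), act redundantly in the tapetum, form dimers with DYT1 and also bind AMS. In RefSeq's annotation AT2G31210 and AT2G31220 lie near each other, with 1 annotated gene between them. AT2G31220 itself had no named probe set, and whether the probes for AT2G31210 also match it was not tested. MYB80, the mutated gene, was not analysed here for the same reason, and neither were DYT1, TDF1 and MS1, so the labels were not checked on the mutated gene.

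All 3 genes were higher in mutant replicates 1 and 5-2 than on any wild-type array, while in mutant replicate 4 AMS alone stayed above wild type. Of the 15164 probe sets tested, 2956 had replicates 1 and 5-2 above every wild-type array. In 8.38% of those tested, all 3 mutant arrays were above. In geometric means over all arrays AMS was 2.42-fold, AT2G31210 2.43-fold and AT1G06170 1.47-fold higher in the mutant. None of the 3 passed the test over all mutant arrays. Without mutant replicate 4, AMS and AT2G31210 passed. That array was the lowest mutant array for all 3 genes, so leaving it out had to raise their mutant means. The share of all probe sets called higher also went from 0.448% to 0.772% without it. Because whole anthers were measured, more tapetum cells and more RNA per tapetum cell cannot be told apart.

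Values are intensities in arbitrary units, scaled so that every array has the same median. AMS, the factor that acts directly upstream of MYB80, read 2037, 1173 and 3359 on mutant replicates 1, 4 and 5-2, and 847, 774 and 863 on wild-type replicates 2, 5 and 6. The lowest mutant array thus lay above the highest wild-type array, and the groups did not overlap. On the log2 scale the mutant mean was 10.97 ± 0.76 and the wild-type mean 9.69 ± 0.08 (SD, n = 3 arrays each). Wild-type arrays differed by at most 1.12-fold and mutant arrays by 2.86-fold.

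AT2G31210 read 361, 98.1 and 438 on mutant replicates 1, 4 and 5-2, and 94.7, 102 and 113 on wild-type replicates 2, 5 and 6. Replicate 4 fell inside the wild-type range, and the other mutant arrays were more than 3-fold above it. The log2 means were 7.96 ± 1.17 in the mutant and 6.68 ± 0.12 in wild type (SD, n = 3 each). The SD over the mutant arrays was large for this gene, since 2.78% of the 15164 probe sets tested had a larger one.

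AT1G06170 read 402, 258 and 813 on mutant replicates 1, 4 and 5-2, and 318, 291 and 288 on wild-type replicates 2, 5 and 6. Replicate 4 lay below every wild-type array, replicate 1 modestly above them and replicate 5-2 far above. The log2 means were 8.78 ± 0.83 and 8.22 ± 0.08 (SD, n = 3 each). Relative to the wild-type geometric mean of 298, replicate 1 was 1.35-fold, replicate 4 0.866-fold and replicate 5-2 2.73-fold.

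**Figure D1:**
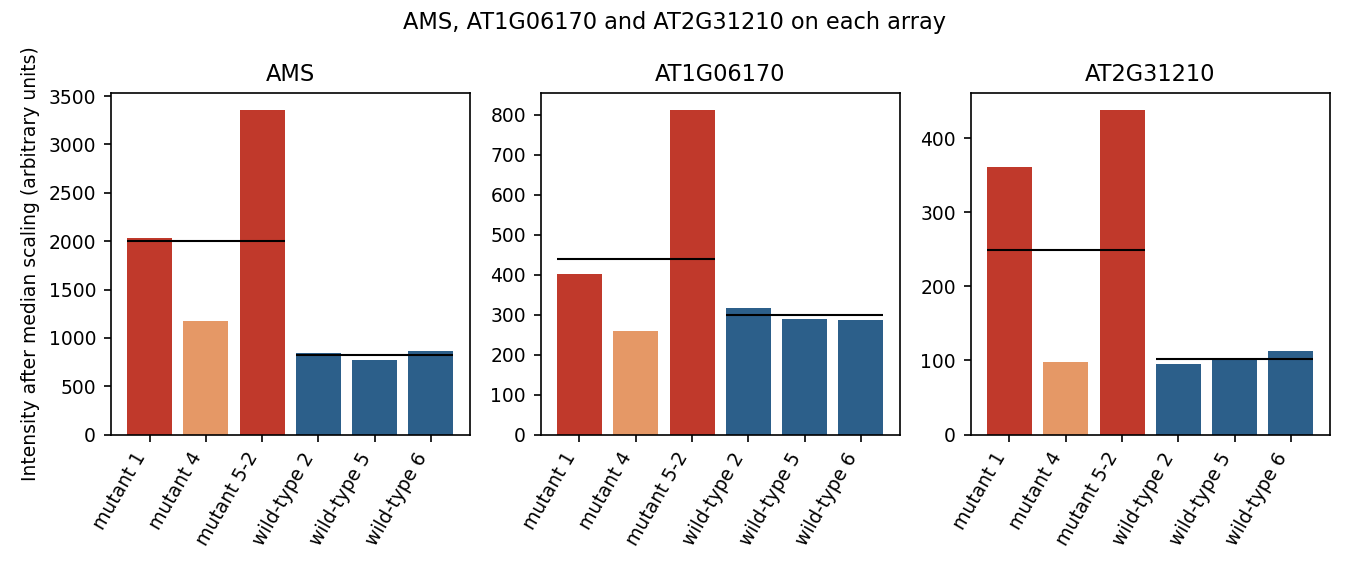
Intensity after median scaling (y axis, arbitrary units, linear from 0, a separate scale in each panel) of the 3 genes on each array; bars are single arrays and black lines are geometric means of the 3 arrays of a group. Mutant replicates 1 and 5-2 exceed all wild-type arrays in each panel, whereas mutant replicate 4 exceeds them for AMS (1173 against at most 863) and not for AT1G06170 (258) or AT2G31210 (98.1).

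The difference between the groups was tested across all probe sets with limma, which borrows information on the spread between probe sets, with two-sided p-values adjusted by Benjamini and Hochberg's method. Calls were made at adjusted p under 0.05, and the dimmest 1 in 3 probe sets had been left out beforehand. Of the 15164 probe sets tested, 0.448% were called higher and 1.6% lower in the mutant, and none of the 3 genes was among them. The unadjusted limma p was 0.0074 for AMS, 0.031 for AT2G31210 and 0.193 for AT1G06170. How many of all probe sets had an unadjusted p as small was not counted. AMS had a log2 difference of 1.28 ± 0.38 (SE, with 3 arrays per group; adjusted p = 0.148 by limma). Its 95% interval ran from 1.35-fold to 4.34-fold higher. AT2G31210 had almost the same mean difference with a wider error, at 1.28 ± 0.51 (limma adjusted p = 0.330), and an interval from 1.10-fold to 5.34-fold. AT1G06170 had 0.56 ± 0.40 (limma adjusted p = 0.663), with an interval from 0.793-fold to 2.73-fold that holds both no change and more than a doubling.

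These differences can be read against the other probe sets. A larger log2 difference towards the mutant than that of AMS was found in 1.12% of the probe sets tested, than that of AT2G31210 in 1.10% and than that of AT1G06170 in 10.3%, where the median over all was 0.04. Groups did not overlap, with the mutant higher, in 8.38% of the probe sets tested, and with the mutant lower in 8.9%. They did not overlap in 1 of the 3 genes, AMS. An exact two-sided permutation test over the arrays gave p = 0.1 for AMS, the smallest value that 3 arrays against 3 allow. When all 22746 probe sets were tested with no filter, 0.0044% were called higher and 0.00879% lower, and the limma adjusted p was 0.399 for AMS, 0.598 for AT2G31210 and 0.789 for AT1G06170.

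Mutant replicate 4 was the only array whose removal changed which of the genes passed. Without it AMS was higher by 1.66 ± 0.31 on the log2 scale (limma adjusted p = 0.0239) and AT2G31210 by 1.95 ± 0.28 (adjusted p = 0.00665). AT1G06170 reached 0.94 ± 0.35 and did not pass (adjusted p = 0.258). In that comparison of 2 mutant with 3 wild-type arrays, 0.772% of probe sets were called higher and 2.76% lower. None of the 3 genes passed when any other single array was left out. Mutant replicate 5-2, the highest array for each gene, had the opposite influence. Without it the log2 differences were 0.90 for AMS, 0.87 for AT2G31210 and 0.11 for AT1G06170.

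**Figure D2:**
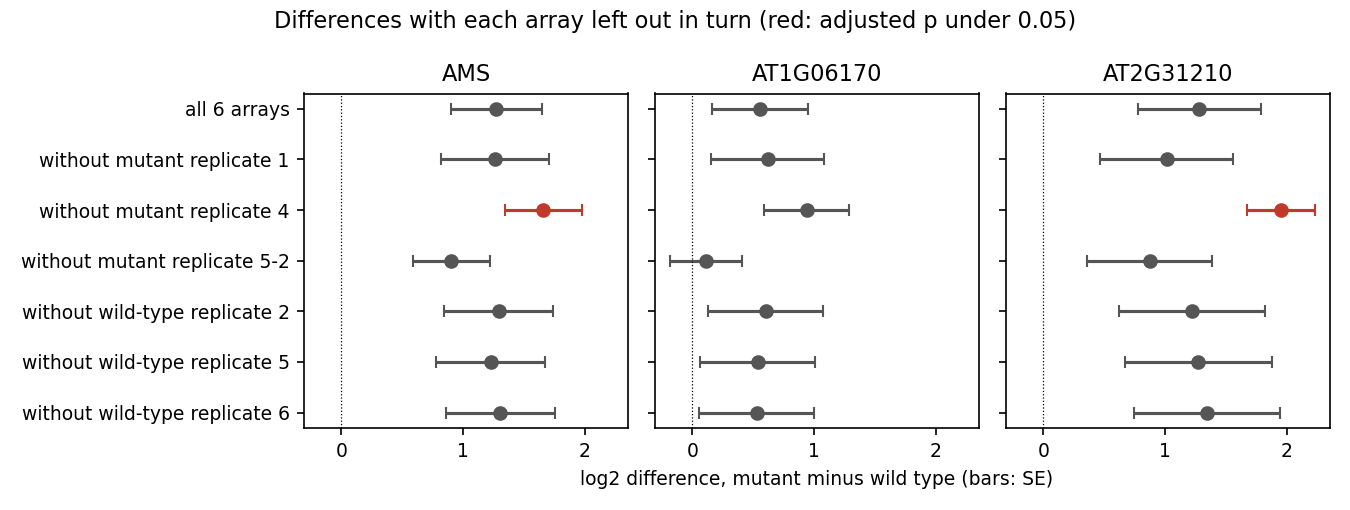
Log2 difference between mutant and wild type (x axis) of the 3 genes with all 6 arrays and with each array left out in turn (rows); points are limma estimates, bars are SE and red marks an adjusted p under 0.05. Without mutant replicate 4 AMS (1.66) and AT2G31210 (1.95) pass, and no other point does.

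The gap between replicate 4 and the other mutant arrays was itself wide for these genes. The geometric mean of replicates 1 and 5-2 was 2.23-fold above replicate 4 for AMS, 2.21-fold for AT1G06170 and 4.05-fold for AT2G31210. A wider gap was found in 4.64% of the probe sets tested for AMS, in 4.75% for AT1G06170 and in 0.620% for AT2G31210. Replicate 4 was the lowest of the 3 mutant arrays in 45.9% of all probe sets tested, so low readings there were not limited to these genes. That share depended on the scaling, which multiplied replicate 4 by 0.897, and was 32.6% on the intensities as deposited. The position of replicate 4 for the 3 genes did not. As deposited it read 1307 for AMS, above the highest wild-type array at 871, and 109 for AT2G31210, between wild-type arrays at 90.5 and 114. For AT1G06170 it read 288 as deposited, just under the lowest wild-type array at 290.2. After quantile normalization replicate 4 likewise exceeded all wild-type arrays for AMS and not for the other two.

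Across the array as a whole, replicate 4 resembled wild type as much as it resembled the other mutant arrays. Pearson's r of log2 values between 2 arrays, computed over the probe sets tested, averaged 0.870 for replicate 4 with mutant replicates 1 and 5-2 and 0.871 with the wild-type arrays. For replicates 1 and 5-2 the corresponding values were 0.887 and 0.891 with mutant arrays, against 0.814 and 0.836 with wild type. There were 2956 probe sets in which replicates 1 and 5-2 both exceeded every wild-type array. Replicate 4 did not exceed every wild-type array in 57.0% of them, or in 42.1% on the intensities as deposited. AT1G06170 and AT2G31210 are among these, and AMS is not. Among the 484 of the probe sets whose mean of replicates 1 and 5-2 was also over 2-fold above wild type, which include AMS and AT2G31210, replicate 4 did not exceed every wild-type array in 36.0%. Replicate 4 also had the highest ratio of 3' to 5' signal, a sign of RNA degradation, of all 6 arrays in 3 of 6 control pairs and of the mutant arrays in 4 of 6. For the actin pair named r2 the ratio in replicate 4 was 29.6, against 13.3 to 24.7 on the other arrays. For the actin pair named Athal it was 23.3, inside the range of 16.2 to 34.4 on the other arrays. The part of RNA quality in the low readings of replicate 4 was not tested.

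**Figure D3:**
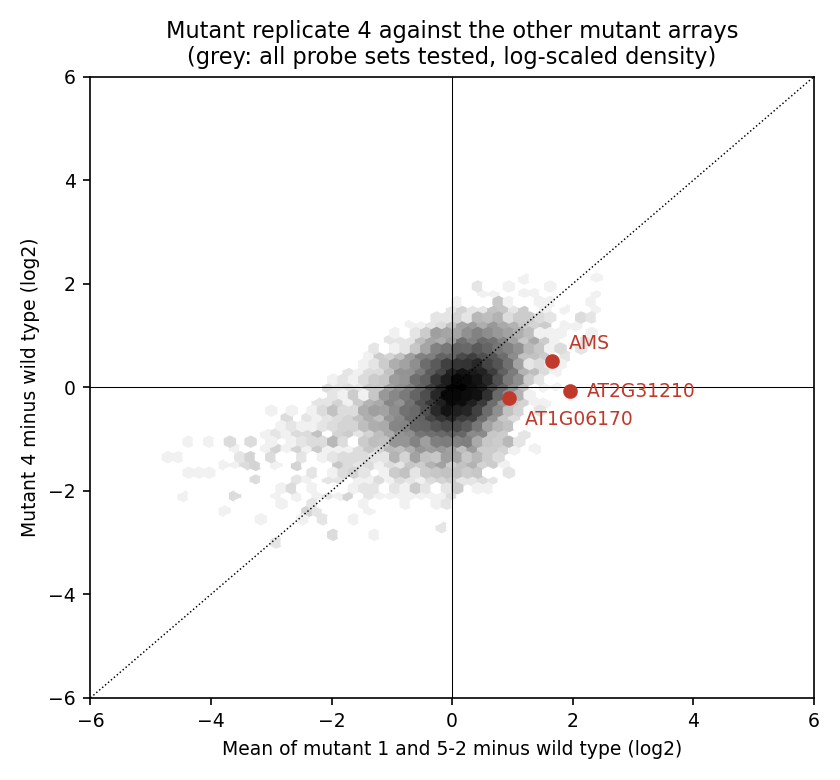
For each of the 15164 probe sets tested, the log2 value of mutant replicate 4 minus the wild-type mean (y axis) against the mean of mutant replicates 1 and 5-2 minus the wild-type mean (x axis); grey shading is the number of probe sets on a log scale, red points are the 3 genes and the dotted line marks equal values. All 3 genes lie below the line, AMS at 0.50 on the y axis and AT2G31210 (-0.07) and AT1G06170 (-0.21) at or under 0.

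Ratios between the genes within an array do not depend on the median scaling, and 3 pairs were compared. The log2 ratio of AMS to AT1G06170 was 2.34, 2.18 and 2.05 on mutant replicates 1, 4 and 5-2, and 1.41, 1.41 and 1.59 on wild-type replicates 2, 5 and 6. All 3 mutant arrays, replicate 4 included, were thus above all wild-type arrays, and the mean difference was 0.72 (exact two-sided permutation p = 0.1, the smallest possible, 0.3 adjusted over the 3 pairs). Set against every other probe set tested in place of AT1G06170, the AMS ratio was higher on all mutant arrays for 66.9%. Only 0.719% of the other probe sets had a ratio to AT1G06170 that was higher on all mutant arrays.

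AMS and AT2G31210 differed from wild type by the same mean amount, but not array by array. Their log2 ratio was 2.50, 3.58 and 2.94 on mutant replicates 1, 4 and 5-2 and ran from 2.93 to 3.16 in wild type, with a mean difference of -0.0048 (exact permutation p = 0.9). Replicate 4 stood highest, since AT2G31210 was at the wild-type level there, and replicate 1 lowest. The ratio of AT1G06170 to AT2G31210 was lower in the mutant by 0.72 on average (exact permutation p = 0.2), and replicate 4, at 1.40, lay among the wild-type values of 1.35 to 1.75. Over the 6 arrays, which the genes share, Pearson's r of log2 values was 0.946 for AMS with AT2G31210, 0.893 for AMS with AT1G06170 and 0.874 for AT1G06170 with AT2G31210.

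**Figure D4:**
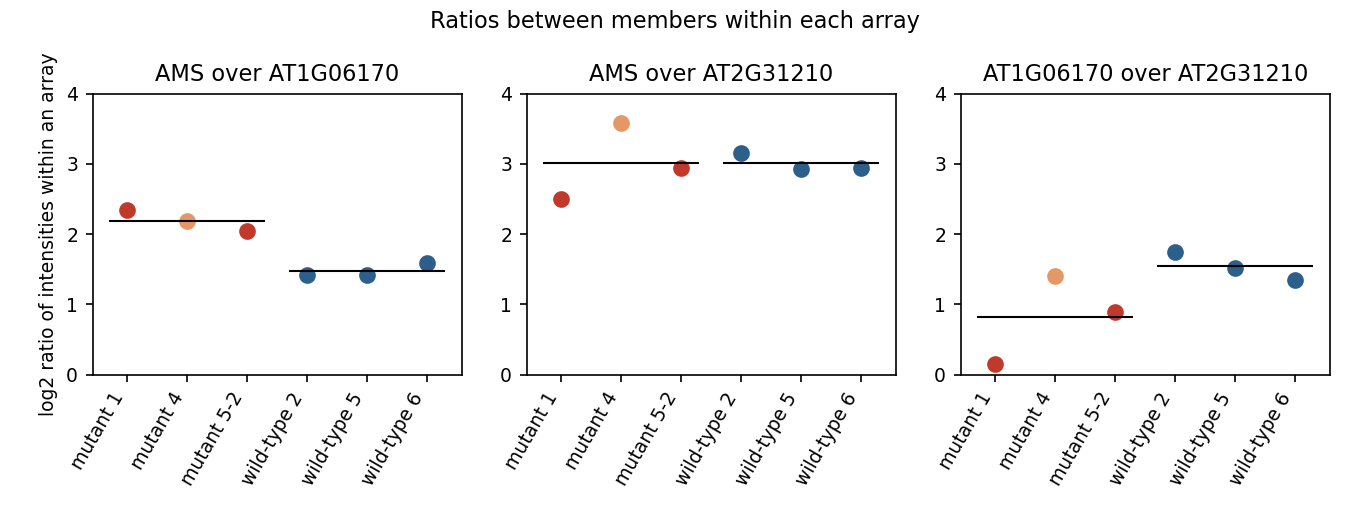
Log2 ratio of the intensities of 2 genes within each array (y axis) for the 3 pairs; points are single arrays and black lines are group means over 3 arrays. The ratio of AMS to AT1G06170 separates the mutant arrays (2.05 to 2.34) from the wild-type arrays (1.41 to 1.59), and the other ratios do not.

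Other genes of the tapetal regulatory chain were taken from a list of 22, of which 4 had a named probe set of their own. Of these, 2 were bright enough for the filtered limma test. Neither passed there, at the adjusted or at an unadjusted threshold of 0.05. EMS1, the receptor kinase that specifies tapetal fate, read 508, 424 and 709 on mutant replicates 1, 4 and 5-2 and 311, 459 and 290.2 on the wild-type arrays (log2 difference 0.63 ± 0.31, SE, limma adjusted p = 0.470). Its order over the mutant arrays was that of the 3 bHLH genes, and replicate 4 lay inside the wild-type range, as for AT2G31210. ROXY2, a glutaredoxin gene of early anther development, went the other way, with replicate 4 highest at 74.1 against 35.1 and 29.6 in replicates 1 and 5-2. Wild type ran from 5.92 to 23.4 for ROXY2, with 2 of 3 arrays under the floor of 16 below which values were not ordered. Its log2 difference was 1.23 in the unfiltered test (limma unadjusted p = 0.0327, adjusted p = 0.422). Its relative ROXY1 was at the floor on all 3 wild-type arrays and 1 mutant array, so no size is given for it. SPL, which specifies the cells that precede the tapetum, had a log2 difference of -0.04. The median over EMS1 and SPL, the 2 in the filtered test, was 0.29, against 0.04 over all probe sets tested.

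Among 29 other bHLH genes chosen as relatives or as well-known family members, 11 had a named probe set and 8 entered the filtered test. None was called by limma, and the smallest unadjusted p of the 8 was that of ALC, at 0.0045. ALC, which acts in fruit opening, read 129, 117 and 109 on the mutant arrays and 36.1 to 73.4 in wild type, so that the groups did not overlap (log2 difference 1.16 ± 0.31, SE, limma adjusted p = 0.113). In ALC replicate 4 was level with the other mutant arrays, unlike in the 3 anther bHLH genes. The median over the 8 was 0.24, and ALC had the highest difference of them. MYC4, outside the filtered test, was at the floor on every mutant array and 1 wild-type array. BIM1, a brassinosteroid signalling factor, had 0.22 ± 0.26 and AT5G57150 (bHLH35) 0.25 ± 0.30 (limma adjusted p = 0.823 and 0.832).

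Genes that the tapetum uses to build the pollen wall and coat, several of which are reported to need AMS, were measured for 5 of 28. None was called, and none had an unadjusted p under 0.05 in the filtered limma test. AT1G75920 (EXL5), a lipase of the pollen coat, read 2744, 2036 and 4025 on mutant replicates 1, 4 and 5-2 and 2191 to 2676 in wild type (log2 difference 0.26 ± 0.31, SE, limma adjusted p = 0.832). AT1G33430 (KNS4), a galactosyltransferase of exine formation, read 7370, 6731 and 9848 against 4675 to 5694 and did not overlap (0.58 ± 0.27, adjusted p = 0.434). Both had replicate 4 lowest and 5-2 highest, the order of AMS, and so did SHT, which makes spermidine conjugates of the pollen coat, at 2159, 1793 and 3086 on replicates 1, 4 and 5-2 against 2646 to 3528 in wild type. The log2 difference of SHT was -0.41 ± 0.29, that of ATA27, a tapetal glucosidase, -0.69 ± 0.33, and that of the sugar transporter gene SWEET8 -0.10 ± 0.26. The median over the 5 was -0.10, and 2 of the 5 had a difference above 0.

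The tapetal lipid transfer proteins, secreted carriers of lipids to the pollen wall, were the one tapetal list with called members. Of 6 genes 5 were measured, and 3 of these, AT5G52160, AT5G62080 and AT3G52130, rose, with a median log2 difference of 1.80 over the 5. Over all probe sets tested 0.448% were called higher. This list, like the others, was chosen with earlier results of these data known, so its count of calls is not an independent test. AT3G52130 read 1143, 681 and 962 on mutant replicates 1, 4 and 5-2 and 180 to 267 in wild type (4.18-fold, log2 difference 2.06 ± 0.30, SE, limma adjusted p = 0.0154). AT5G07230 (A9) read 10255, 4850 and 14470 against 4921, 2150 and 4784 in wild type, the only one of the 5 in which replicate 4 lay inside the wild-type range, as it did for AT2G31210. Replicate 4 was the lowest mutant array in all 5, or in 4 of the 5 as deposited, yet in 4 of the 5 it stayed above all wild-type arrays, as it did for AMS. All mutant arrays were above all wild-type arrays in 8.38% of the probe sets tested. The count of calls stayed at 3 without mutant replicate 4, and was 2 without mutant replicate 1 and 1 without wild-type replicate 6. None were left without mutant replicate 5-2, without either of wild-type replicates 2 and 5, or in the unfiltered test.

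Markers listed for microspores and pollen, without a split by stage, had differences in the opposite direction. All 12 measured genes of a list of 24 had a log2 difference below 0, with a median of -1.81, and 3 of the 11 in the filtered test fell, ANX2, ACT12 and AGL104 (limma adjusted p = 0.0109, 0.0328 and 0.0171). The other 8 did not pass, and over all probe sets tested 1.6% were called lower. A further 3 genes of the list share probe sets with other genes and were not used. The summed intensity of the 12 was 611, 2335 and 728 on mutant replicates 1, 4 and 5-2 and 4537 to 6797 in wild type. Most of the sum in replicate 4 came from AT5G45880, related to the LAT52 pollen gene of tomato, at 1426 against 30.8 and 236 on the other mutant arrays and 3215 to 4987 in wild type. ANX1 and ANX2, receptor kinases of the pollen tube, were under the floor of 16 on all 3 mutant arrays. The floor thus set their spread over the mutant arrays to 0, also in the test that called ANX2. Replicate 4 was the mutant array nearest to wild type in 8 of the 12, as it was for the 3 bHLH genes. The share over all probe sets was not counted. Over all probe sets tested replicate 4 was also the mutant array most like wild type, at an average r of 0.871 against 0.814 and 0.836. Without replicate 4, 5 of the 11 were called lower, where 2.76% of all probe sets tested were. The count was 3 without mutant replicate 1, 2 without wild-type replicate 6 and 1 without wild-type replicate 2 or 5. It was 0 without mutant replicate 5-2 and in the unfiltered test. Of 16 meiosis genes 5 were measured and 1, ATMND1, entered the filtered test (0.65 ± 0.28, limma adjusted p = 0.386). Of the dimmer ones, whose values are partly set by the floor, SPO11-2 had a log2 difference of -0.95, SDS one of -0.30 and ATSPO11-1 one of 0.28. The part of a different mix or stage of cells in the bHLH differences was not tested.

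**Figure D5:**
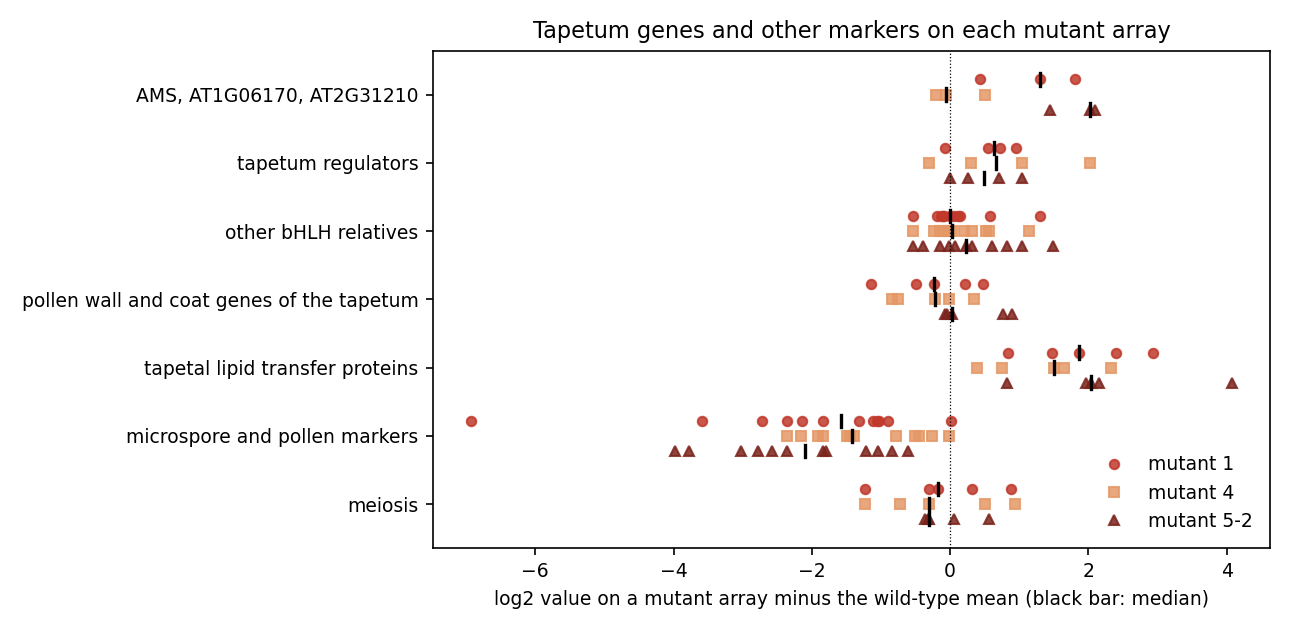
Log2 value on each mutant array minus the wild-type mean (x axis) for the 3 bHLH genes and the measured genes of 6 lists (rows); each point is 1 gene on 1 array and black bars are medians over genes. Replicate 4 (squares) sits at 0.50 for AMS, -0.07 for AT2G31210 and -0.21 for AT1G06170, between 0.39 and 2.33 for the lipid transfer proteins and at a median of -1.42 for the pollen markers.

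The genes whose values over the 6 arrays were most like each bHLH gene were found by Pearson's r of log2 values among 8428 other named probe sets. With 6 arrays high values are common, and r was above 0.9 in 2.96% of the probe sets tested for AMS, in 2.67% for AT1G06170 and in 2.41% for AT2G31210. Nearest to AMS were AT3G45310 (r = 0.997), AT3G57470 (0.997), PIR121 (0.996), AT5G04750 (0.992) and AT1G73200 (0.989). PIR121, a subunit of the complex that activates actin nucleation, read 357, 293 and 444 on mutant replicates 1, 4 and 5-2 and 238 to 262 in wild type. The log2 differences of these 5 ran from 0.35 to 0.99, below the 1.28 of AMS. For AT1G06170 they were AT1G01725 (0.995), AT5G05110 (0.991), AT1G49450 (0.991), AT1G70160 (0.988) and AT3G13510 (0.985), of which AT1G70160 read 1483, 890.3 and 2468 in the mutant and 928 to 1028 in wild type. For AT2G31210 they were ATB2 (0.995), AT2G33255 (0.995), HVA22C (0.992), AT4G31980 (0.987) and AT2G42390 (0.986). ATB2, an aldo-keto reductase gene, read 406, 208 and 448 in the mutant and 207 to 225 in wild type, with replicate 4 again inside the wild-type range. None of these 15 genes was called by limma, with adjusted p from 0.160 for AT5G04750 to 0.881 for AT3G13510.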

How the data were processed

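Biotin-labelled RNA of dissected anthers was hybridised to Affymetrix arrays, 3 per group. The authors deposited 1 intensity for each probe set on each array, not log transformed, as the values show; how they were computed is not stated in the sources used here. Array medians differed by 0.323 on the log2 scale, and a factor for each array, from 0.897 to 1.12, brought them to a common median. Values under 16 were set to 16 before log2 was taken, which applied to between 19.0% and 22.0% of values on an array.

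The 64 Affymetrix controls were left out, and of the other 22746 probe sets the dimmest 1 in 3 by the mean over all arrays were dropped, which left 15164. Groups were compared with limma 3.58.1 in R 4.3.3 (linear model and moderated statistics, no covariate, Benjamini-Hochberg adjustment over all probe sets tested). The fit was also run on simulated data, in which deviations were shuffled over arrays for each probe set separately. Such data do not cover a shift that many probe sets of an array share. The filter keeps probe sets pinned at the floor on every array out of the variance prior. It does not remove all those at the floor in a single group, such as ANX2. The prior had 5.39 degrees of freedom with the filter and 0.728 without. The labels give no batch and do not say whether replicates were grown apart, so a p-value covers only the spread among these samples. The number of arrays limits the precision.

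Probe sets were named through the platform's annotation and RefSeq's TAIR10.1 gene table. Of the 22746, 13513 had 1 gene, 503 several and 8730 are unnamed here, and 13436 of the first were matched to RefSeq. The files do not name a genome build, so positions are left out. All arrays are shown for the 3 genes. From each gene list every called gene is named, or otherwise up to 4 with the smallest unadjusted p in the unfiltered test, and for each of the 3 genes the 5 most alike in pattern. AT5G07230, SWEET8, AT5G45880 and ANX1 were named after their values were seen. The 3 genes, the lists and the tests were chosen with earlier results of these data known.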

Additional observations from a re-analysis of the deposited data

How the results depend on the processing

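The log2 differences of AMS, AT1G06170 and AT2G31210 stayed above 0 in all 14 alternatives tried (scaling, floor, filter, variance model, each array left out). Leaving out 1 array gave 0.90 to 1.66 for AMS, 0.11 to 0.94 for AT1G06170 and 0.87 to 1.95 for AT2G31210 (limma adjusted p from 0.0239 to 0.375, 0.258 to 0.915 and 0.00665 to 0.658). Array weights (statmod 1.5.0) were 2.08 for mutant replicate 1, 0.594 for mutant replicate 4 and 0.561, the lowest of all, for mutant replicate 5-2. With them AMS was at 1.27 and just passed (limma adjusted p = 0.04996). In the other 7 alternatives that kept all arrays the limma adjusted p of AMS was 0.0631 or more. The mean difference in the ratio of AMS to AT2G31210 turned to 0.17 with quantile normalization, and ran from -0.29 to 0.25 with 1 array left out, the ends being the fits without mutant replicates 4 and 1. The differences for the ratios of AMS to AT1G06170 and of AT1G06170 to AT2G31210 kept their sign.

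Counts over all probe sets moved widely. Of 68 higher and 243 lower, there were 23 and 47 with no floor, 124 and 408 with a floor of 32, 154 and 496 with array weights, and 1 and 2 with no filter. The lower count was 87 as deposited and 133 with quantile normalization. With 1 array left out the counts ran from 12 to 117 higher and from 31 to 418 lower. Replicate 4 was the lowest mutant array in 45.9% of probe sets, in 32.6% as deposited, in 36.7% with quantile normalization and in 34.4% with no filter. The causes of these shifts were not tested. The leave-one-out ratios, the shares for replicate 4 and the calls within lists were added after the data were seen. No paired analysis was possible because the groups share at most 1 replicate number.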
